A study of Mus musculus with 29 samples.

Results

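The mouse genes Zp1, Zp2, Zp3, Gdf9 and Bmp15 were followed across single nuclear transfer embryos and single cumulus cells. They were taken by symbol and are 5 of the 24448 gene rows of the count table. Zp1, Zp2 and Zp3 encode the glycoproteins of the zona pellucida, the extracellular coat of the egg. Gdf9 and Bmp15 encode growth factors of the TGF-beta superfamily that the oocyte secretes.

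RNA was measured in 29 libraries. The 9 control and 8 hydroxyurea (HU) libraries were each 1 whole embryo of the BDF1 strain: an MII oocyte was enucleated, received the nucleus of a cumulus cell, and was activated for 6 h with 10 mM strontium in the presence of EGTA and the agent that the labels call CB. The embryos of both groups were shared out at random, 1 group into medium with 10 uM HU, an inhibitor of ribonucleotide reductase, and the other into medium without it, and the HU medium was exchanged for HU-free medium after 24 h. Collection was at 28 h after activation, when the 17 embryos had 2 cells, so both groups carry the oocyte's cytoplasm, a somatic nucleus and the same activation. The third group was 12 single BDF1 cumulus cells, the cell type that gave the donor nuclei, with no treatment in the labels. No label ties an embryo to a day or a female, and p-values therefore reflect only how far these particular embryos vary. Each embryo library pools the RNA of a whole embryo.

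In the mouse, the 3 coat glycoproteins are made by the growing oocyte, are cut from the cell surface and assemble into filaments. ZP2 and ZP3 build the filaments, ZP1 links them to each other, and ZP2 is the protein that sperm bind and that is cleaved after fertilization. GDF9 and BMP15 act on the neighbouring granulosa and cumulus cells through serine/threonine kinase receptors of type I and type II and SMAD proteins. They sustain follicle growth, cumulus expansion and cumulus metabolism. The messengers of such genes are made while the oocyte grows, are stored in the egg and are then degraded as the embryo starts its own transcription.

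On GRCm38, the assembly called mm10, GENCODE M21 places Zp1 at chr19:10914287-10920632 on the minus strand with 12 exons. Zp2 lies at chr7:120126772-120145291 on the minus strand with 18 exons, and Zp3 at chr5:135980099-135988624 on the plus strand with 8 exons. Gdf9 lies at chr11:53431023-53437904 on the plus strand and Bmp15 at chrX:6314107-6320721 on the minus strand, each with 2 exons. No other annotated gene overlapped any of the 5.

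The ends of the messengers are shown because a stored oocyte mRNA is regulated through its 3′ UTR, by the polyadenylation signal and by nearby cytoplasmic polyadenylation elements. Each window holds 30 bases of the principal transcript around the last AATAAA, which is in capitals.
Zp1: ttaaatggactcAATAAAccattgtttgaa
Zp2: attggacttgcaAATAAAgagactgcagtt
Zp3: tatcccttccgcAATAAAagaagaaactca
Gdf9: atgtgacggaagAATAAActgttgatggca
Bmp15: ttaatcttaaagAATAAAttttcatttatg

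All 5 transcripts carried the signal. The annotated 3′ UTR measured 13 bases in Zp3, 34 in Zp1 and 49 in Zp2, against 360 bases in Gdf9 and 1523 in Bmp15. Over 21781 genes with an annotated stop codon in a principal transcript, the median 3′ UTR was 644 bases. Only 8.32% of those genes had a 3′ UTR as short as that of Zp3 or shorter, 9.64% for Zp1 and 10.9% for Zp2, while the figure was 36.7% for Gdf9 and 74.0% for Bmp15. The zona genes were thus at the short end of the mouse annotation and the growth factor genes were not. Searched on the sense strand of the last 100 bases of a transcript, which reach into coding sequence in the zona genes, AATAAA was present in 59.2% and TTTTAT or TTTTAAT, 2 forms of the cytoplasmic element, in 15.98% of 21781 principal transcripts. The cytoplasmic element was found once in Gdf9, starting 16 bases before the signal, and in 0 of the other 4. A match or its absence describes these letters in this window and nothing else.

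Promoters of Zp3 and Bmp15 (2 of 5) were matched in the RefSeq promoter table on GRCm38.p6, which gives 250 bases before the start and 50 after it. Every CANNTG, the E-box letters bound by basic helix-loop-helix factors such as FIGLA, the oocyte factor of the zona genes, is in capitals.
Zp3, chr5:135979855-135980154, plus strand: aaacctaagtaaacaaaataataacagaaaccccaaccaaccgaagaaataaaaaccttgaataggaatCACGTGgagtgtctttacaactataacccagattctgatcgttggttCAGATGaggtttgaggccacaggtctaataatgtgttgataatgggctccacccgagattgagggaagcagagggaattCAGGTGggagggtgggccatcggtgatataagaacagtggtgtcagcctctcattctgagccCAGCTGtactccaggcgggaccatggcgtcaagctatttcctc
Bmp15, chrX:6320675-6320974, minus strand: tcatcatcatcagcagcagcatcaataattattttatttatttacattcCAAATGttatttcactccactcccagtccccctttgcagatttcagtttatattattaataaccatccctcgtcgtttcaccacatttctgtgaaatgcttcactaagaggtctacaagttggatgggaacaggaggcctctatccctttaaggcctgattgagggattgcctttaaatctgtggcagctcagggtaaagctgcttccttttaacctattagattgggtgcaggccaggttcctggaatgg

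The Zp3 window held 4 CANNTG, starting at -181, -134, -55 and 7 relative to the start site, and the Bmp15 window held 1, at -201. CANNTG reads the same on both strands, and it was present in 72.1% of the 27025 promoters of the same length. The first of the Zp3 matches was CACGTG, found in 7.24% of all promoters on either strand, and the third was CAGGTG, found in 20.03%. TAATTG, the only form searched of the letters bound by the oocyte homeobox factor NOBOX, occurred in 8.15% of promoters and in neither of these windows. These matches are counted within the CANNTG set where they overlap it and are a description of sequence, not of binding.

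The embryo libraries held 1801261 to 3757492 gene counts, and the 12 cumulus cells held 317195 to 4051494. Mean gene counts were 2636660 ± 503193 (SD, n = 9) in control and 3095490 ± 464822 (SD, n = 8) in HU embryos. The pre-rRNA row Rn45s took 15.2% to 32.5% of the gene counts of an embryo. Of the genes of the 2-cell stage, 9 of the 10 that could be tested had a fitted fold change above 0 in HU embryos, and 0 passed the test. The mean log2(CPM + 1) of those genes stood apart in 1 control embryo at 7.38, against 3.46 to 4.09 in the other 8, and ranged from 2.55 to 7.03 in HU embryos. Cumulus cells carried cumulus and granulosa transcripts with 14 of 19 listed markers counted in at least 6 cells, among them Cyp11a1 and Gja1, while Cyp19a1 was at 0 in all 12. Cumulus cell 2 stood apart: it had 487 CPM of these markers against 940 to 13553 CPM in the other 11 cells, 608 CPM of 8 housekeeping genes against 1567 to 24064 CPM, and 164 CPM of 8 immune markers against 0 to 61.9 CPM.

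Levels can be compared between genes only per length, and on that scale Bmp15 stood first. FPKM are the authors' deposited values, counts scaled to transcript length and library total. In control embryos Bmp15 had a mean level of 533 ± 104 FPKM (SD, n = 9), which ranked 55 among 18453 genes with an FPKM above 0 in a control embryo. Gdf9 had 134 ± 21.6 FPKM and ranked 343. Zp2 followed with 31.7 ± 8.95 FPKM at rank 2139, Zp3 with 29.9 ± 5.71 FPKM at rank 2257 and Zp1 with 23.6 ± 3.18 FPKM at rank 2847. In FPKM the growth factor messengers therefore stood far above those of the coat proteins, and numbers of molecules were not measured.

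The order Bmp15 above Gdf9 above each zona gene held within 17 of 17 embryos. Bmp15 exceeded Gdf9 by a geometric mean of 3.95-fold in control and 3.37-fold in HU embryos, with a range of 2.75-fold to 5.98-fold over all embryos. Gdf9 exceeded Zp2, the nearest zona gene by mean, by 4.33-fold in control and 3.86-fold in HU embryos. The zona genes had no fixed order among themselves: Zp2 was above Zp3 in 11 of 17 embryos and above Zp1 in 13 of 17. In control embryos Zp2 ran from 21.1 to 42.6 FPKM, Zp3 from 18.5 to 38.7 FPKM and Zp1 from 19.2 to 28.2 FPKM, so these neighbours in the order do not differ beyond their spread. Zp3 was above Zp1 in 7 of 9 control embryos and in 3 of 8 HU embryos, and this difference was not tested.

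**Figure D1:**
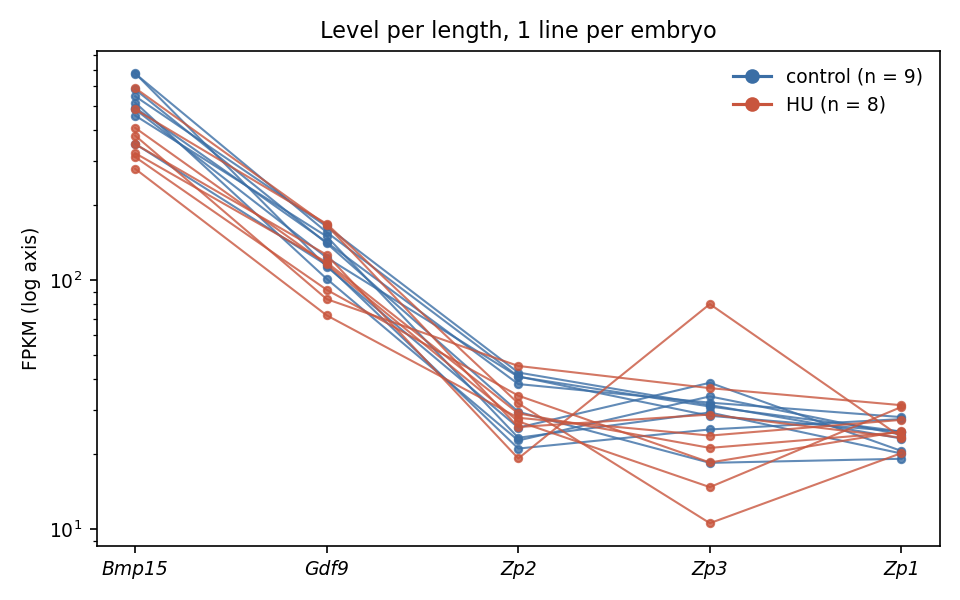
FPKM of the 5 genes (log axis) with 1 line per embryo, 9 control in blue and 8 HU in red. Bmp15 lies above Gdf9 and Gdf9 above the zona genes in 17 of 17 embryos, while the lines cross among Zp2, Zp3 and Zp1.

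As a share of the summed FPKM of the 3 zona genes, control embryos held 36.8% ± 7.01 Zp2, 35.3% ± 6.06 Zp3 and 27.9% ± 4.09 Zp1 (SD, n = 9). The near-equal mixture was wider in HU embryos, where Zp3 made up from 16.8% to 65.3% of the zona messenger, compared with 27.5% to 45.6% in control embryos. The highest and the lowest Zp3 shares were those of HU embryos 3 and 8.

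HU embryos were then compared with control embryos, the comparison of the study's treatment. The edgeR quasi-likelihood test covered 11476 genes, of which 0 passed an adjusted p under 0.05 (0% called), and the median log2 fold change over all of them was 0.04. At an unadjusted p under 0.05, 3.81% of genes were higher in HU and 2.04% were lower. The 5 genes passed the filter on low counts. None of the 5 passed the test, and 1 of 5, Bmp15, was lower at an unadjusted p under 0.05. For 4 of 5 the fitted value was below 0, against 46.4% of all genes, and Zp1 was the exception. Values below are CPM, counts scaled to a common library total with TMM factors.

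Zp1, the cross-linking coat protein, had 36.1, 44.2 and 65.3 CPM as lowest, median and highest values in control embryos and 36.4, 50.7 and 64.1 CPM in HU embryos. The groups overlapped over nearly their whole range, and 6 of 8 HU embryos exceeded the median control embryo. Means were 45.7 ± 8.80 (SD, n = 9) and 50.8 ± 9.41 CPM (SD, n = 8). In edgeR this was 0.15 ± 0.19 (SE) as a log2 fold change, with a 95% interval from -0.24 to 0.55 and an adjusted p of 0.921.

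Zp2, the coat protein that sperm bind, had 51.1, 63.8 and 96.1 CPM in control embryos and 40.9, 66.1 and 97.5 CPM in HU embryos. The HU group spanned the control range at both ends. The means were 68.9 ± 16.9 and 67.4 ± 15.9 CPM, a log2 fold change of -0.03 ± 0.20 with a 95% interval from -0.44 to 0.38 (edgeR adjusted p = 0.986).

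Zp3, the partner of ZP2 in the filament, had 23.8, 40.0 and 48.5 CPM in control embryos and 13.0, 33.0 and 102 CPM in HU embryos. Of the 8 HU embryos, 3 lay below every control embryo and 1, embryo 3, lay far above all of them with 312 counts, while embryo 8 held 34 counts. The means were 39.3 ± 6.87 and 39.0 ± 27.7 CPM, a log2 fold change of -0.01 ± 0.31 with a 95% interval from -0.65 to 0.63 (edgeR adjusted p = 0.997). Without HU embryo 3 the HU mean was 30.0 ± 11.8 CPM (SD, n = 7) and the log2 fold change was -0.39. The fitted value changed sign with the embryo left out, from -0.39 to 0.10, and the direction for Zp3 is not determined by these embryos.

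Gdf9 had 187, 248 and 299 CPM in control embryos and 140, 223 and 310 CPM in HU embryos. Of the HU embryos, 3 lay below every control embryo, 1 lay above every one, and 6 of 8 lay below the control median. The means were 242 ± 40.2 and 216 ± 64.1 CPM, a log2 fold change of -0.16 ± 0.18 with a 95% interval from -0.53 to 0.21 (edgeR adjusted p = 0.911).

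Bmp15 had 1324, 1553 and 2203 CPM in control embryos and 899, 1148 and 1875 CPM in HU embryos. The groups overlapped through 3 HU embryos, of which embryo 1 was the highest, and the other 5 of 8 lay below every control embryo. The means were 1625 ± 301 CPM (SD, n = 9) and 1222 ± 318 CPM (SD, n = 8). The log2 fold change was -0.41 ± 0.16 with a 95% interval from -0.74 to -0.09, an unadjusted p of 0.0155 and an adjusted p of 0.829 in edgeR. An exact 2-sided permutation of log2(CPM + 1) over all 24310 splits of the embryos gave p = 0.0116, which is not adjusted for the number of genes. By its p, Bmp15 ranked 196 among the 11476 genes, so it did not stand out of the many genes tested. Leaving out 1 embryo at a time kept the fitted value between -0.54 and -0.35.

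**Figure D2:**
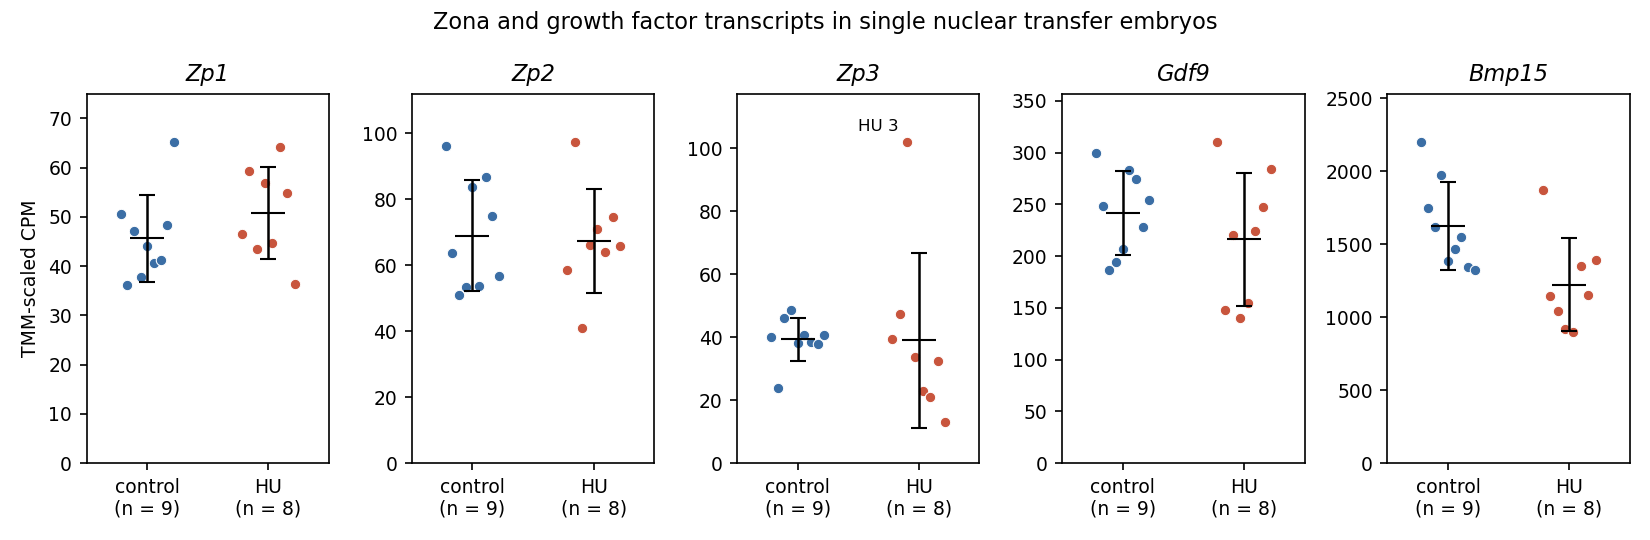
TMM-scaled CPM of each gene in 9 control (blue) and 8 HU (red) embryos; points are embryos in replicate order, and black bars give the mean and SD. Zp3 in HU embryo 3 stands at 102 CPM, and 5 of 8 HU embryos have less Bmp15 than any control embryo.

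Scaling to the ERCC spike-in RNAs, whose rows are in the count table, in place of the embryo's own counts shifted all genes upward, their median log2 fold change going from 0.04 to 0.19. The signs of Zp2, Zp3 and Gdf9 then turned, to 0.13, 0.23 and 0.018. Bmp15 stayed below 0 at -0.22, with an unadjusted edgeR p of 0.324. Relative to the median of all genes, Bmp15 was at -0.45 with TMM and -0.41 with ERCC scaling, Gdf9 at -0.20 and -0.17, Zp2 at -0.07 and -0.05, and Zp1 at 0.11 and 0.13. Zp3 was the gene whose relative value changed sign, from -0.05 to 0.04.

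**Figure D3:**
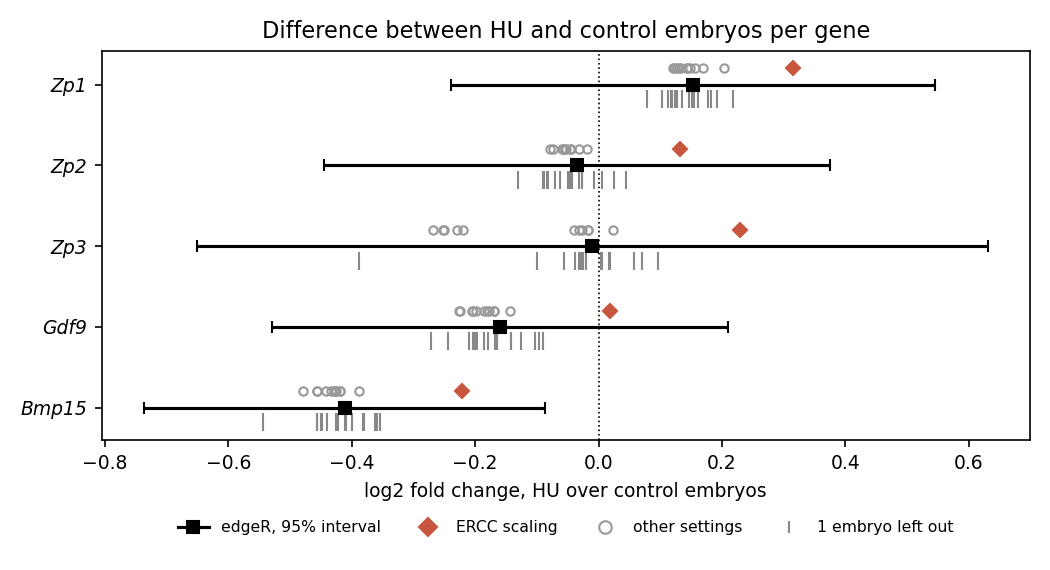
Log2 fold change of HU over control embryos for each gene: the black square is the edgeR estimate with its 95% interval, the red diamond the value with ERCC scaling, open circles the other settings, and ticks the values with 1 embryo left out. The interval of Bmp15 ends at -0.09, and those of the other 4 genes include 0.

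Among HU embryos, the 3 with the lowest 2-cell scores were the 3 with the most Bmp15. HU embryos 3, 4, 5 and 7 had 2-cell scores (mean log2(CPM + 1) of the 2-cell genes) of 6.20, 7.03, 6.06 and 6.76, and 1043, 922, 899 and 1154 CPM of Bmp15. HU embryo 2 had a score of 4.82 with 1143 CPM. HU embryos 1, 6 and 8 had scores of 3.12, 2.55 and 3.43, with 1875, 1348 and 1392 CPM of Bmp15. The control embryo with a score of 7.38 held 1621 CPM of Bmp15, above the control median, and 187 CPM of Gdf9, the lowest of the controls. For Gdf9, HU embryos 3, 4, 5 and 7 held 220.5, 140, 155 and 247 CPM, embryo 2 held 148 CPM, and embryos 1, 6 and 8 held 310, 225 and 284.5 CPM. The scores fall into separate clusters with fewer than 6 embryos in the higher one, so no pooled r is given, and the part of this score in the Bmp15 and Gdf9 values was not tested.

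The SD of log2(CPM + 1) in control embryos lay between 0.24 (Gdf9) and 0.34 (Zp2), against a median of 0.64 over all genes tested. Among the 500 genes nearest in level, 28.4% had a lower control SD than Bmp15, 20.8% than Zp2, 18.2% than Gdf9, 3.4% than Zp3 and 1.2% than Zp1. In HU embryos Zp3 had an SD of 0.86, which was 3.06 times its control SD, and 98.96% of genes had a lower ratio. The HU SD of Zp3 was not extreme in itself: 62.7% of all genes tested and 78.2% of the 500 nearest in level had a lower one. Control SDs of 0.25 for Zp1, 0.24 for Gdf9 and 0.25 for Bmp15 were below the 0.28 of Zp3. What sets the Zp3 ratio was not tested. The ratio was 1.80 for Gdf9, 1.37 for Bmp15, 1.06 for Zp1 and 1.01 for Zp2, beside a median of 1.14 over all genes. Without HU embryo 3, left out after the data were seen, the Zp3 ratio was 2.16. These ratios carry no test.

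How the 5 genes varied together across the 17 embryos depended on the scaling. With TMM, 5 of the 10 pairs had a Pearson r above 0, and 0 of 10 passed the permutation test after adjustment over the 10 pairs. With ERCC scaling, 10 of 10 pairs had an r above 0, from 0.19 to 0.78, and 1 passed. The values that follow use TMM. The closest pair was Gdf9 and Bmp15, with r = 0.63 (permutation p = 0.00702, adjusted 0.0702) and rho = 0.57 (permutation p = 0.0181, adjusted 0.181). The r was 0.12 within the 9 control embryos and 0.82 within the 8 HU embryos (the difference between these was not tested). It was 0.49 without the 2 embryos farthest from the Gdf9 median. All genes of an embryo share its library, and 95% of genes had an r below 0.57 with Gdf9 and below 0.62 with Bmp15.

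Among the zona genes, Zp1 and Zp2 had r = 0.22 (permutation p = 0.408, adjusted 0.816), Zp1 and Zp3 r = 0.10 (permutation p = 0.721, adjusted 0.949), and Zp2 and Zp3 r = -0.31 (permutation p = 0.223, adjusted 0.708). Their rho was 0.28, 0.04 and -0.33 in the same order, with adjusted permutation p of 0.669, 0.964 and 0.634. Without HU embryo 3 the r of Zp2 and Zp3 was 0.03. The 6 pairs of a zona gene with a growth factor gene had r from -0.35, for Zp1 and Bmp15, to 0.05, for Zp2 and Bmp15.

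**Figure D4:**
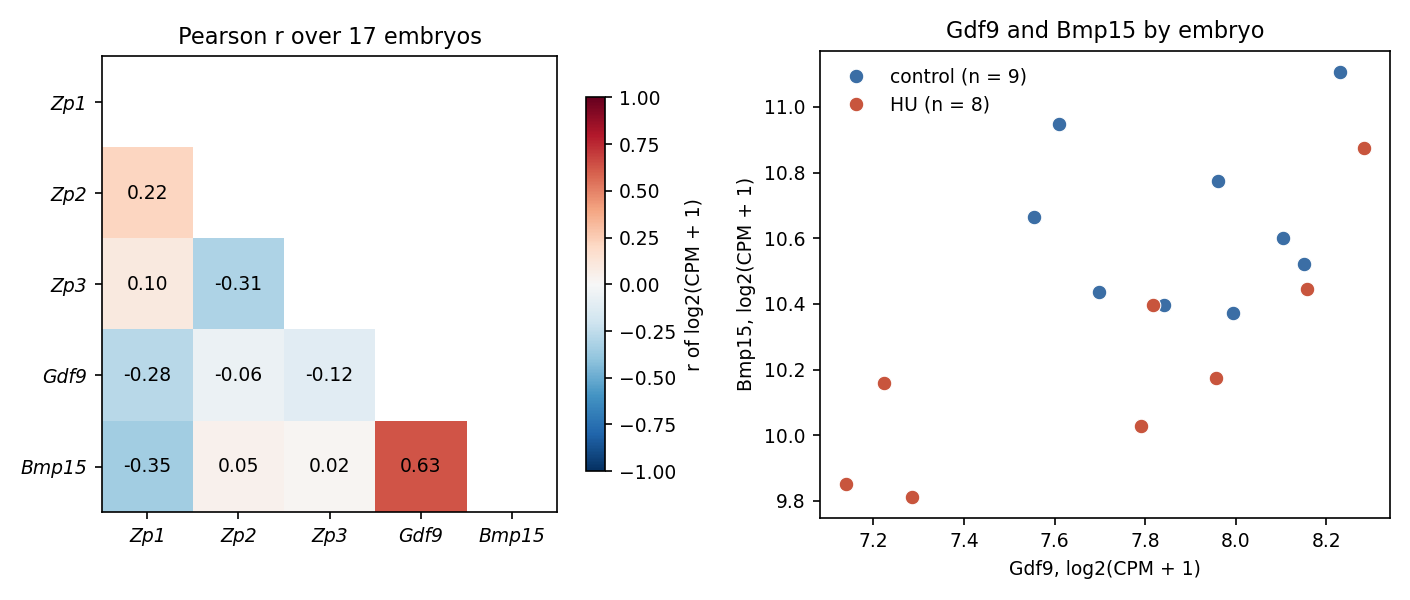
Left, Pearson r of log2(CPM + 1) over 17 embryos for each pair of genes, on a colour scale from -1 to 1; right, Gdf9 against Bmp15 by embryo, control in blue and HU in red. The highest r is 0.63, for Gdf9 and Bmp15, and the HU points spread along both axes.

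The genes were set against the gene counts, the gene counts per ERCC count, the Rn45s share and the 2-cell score of each embryo. Of these 20 relations, 1 passed, Zp1 with the gene counts of the library. None with the 2-cell score passed, and their pooled r is not given because of the clusters named above. The Pearson r was 0.73 (permutation p = 0.00089, adjusted 0.0178) and rho was 0.74 (permutation p = 0.00099, adjusted 0.0198) over 17 embryos. The r was 0.61 within control embryos, 0.81 within HU embryos and 0.81 without the 2 embryos farthest from the median of gene counts. Zp1 thus had a higher CPM in the deeper embryo libraries, and HU libraries were the deeper ones on average. The part of depth in the Zp1 fold change was not tested. For Bmp15 and gene counts, r was -0.19 (permutation p = 0.459, adjusted 0.771) and rho was -0.29 (adjusted 0.721).

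The genes whose level across embryos was most like the mean of Zp1, Zp2 and Zp3, of 8661 genes with a mean of at least 10 CPM, were Gadd45a (r = 0.80 over 17 embryos), Adrbk1 (0.80) and Sesn1 (0.78). Within control and HU embryos their r was 0.77 and 0.89, 0.59 and 0.90, and 0.54 and 0.86. Without the 2 embryos farthest from the median of that mean, r was 0.74, 0.53 and 0.69. No pair of zona genes passed the correlation test, so their mean need not be a profile that the 3 share. The genes most like the mean of Gdf9 and Bmp15 were Pid1, Pak4 and Hsf1, each with r = 0.91, and 0.83 without the 2 farthest embryos. Of these 3, Pid1 was at 0 counts in cumulus cells, and Pak4 and Hsf1 were counted in 10 and 8 of the 12 cells. They were picked as the highest of many r, which is a description.

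In cumulus cells the coat and growth factor genes were near or below detection. Zp1, Zp2, Zp3 and Gdf9 had 0 counts in 12 of 12 cells, among 24058974 summed gene counts. The labels name no animal for the cells, so the 12 count as 1 sample and no test was run. A floor of 3 counts over the 12 cells corresponds to 0.125 CPM. At that floor the pooled cumulus level was 369-fold lower than in the pooled control embryos for Zp1 and 567-fold for Zp2. It was 314-fold lower for Zp3 and 1957-fold for Gdf9. The upper 95% Poisson limit of 0 counts lay higher, at 0.153 CPM. This is 0.333%, 0.217%, 0.392% and 0.0628% of the control embryo level in the same order. For each of these genes 0 of 12 cells allows a share of cells with a count of up to 26.5% (exact 95% interval). That interval takes the cells as independent draws, which the labels do not show. The floor and the Poisson limits, here and below, cover counting error only, since the reads carry no molecular identifiers.

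Bmp15 had 3 counts, all in cumulus cell 2, which is 0.125 CPM (95% Poisson interval 0.0257 to 0.364). This was 0.0077% of the control embryo level (0.0016% to 0.0225%). A count in 1 of 12 cells is 8.33% (exact 95% interval 0.211% to 38.5%, with the cells again taken as independent draws). The same cell held counts of a few other oocyte genes. Of 25 further maternal oocyte genes, Spin1, Zbed3 and Tle6 were counted in at least 6 cells and gave 2341 counts over all cells. The other 22 gave 134 counts, of which 123 were in cell 2 (Mos 61, Oas1d 56, Omt2b 4 and Nlrp5 2) and 0 to 6 in each of the other cells. Tcl1, Omt2a and Btg4, at 7692, 4208 and 2222 CPM in the pooled control embryos, had 0 counts in all 12 cells. Over all 25 genes cell 2 did not stand out. It was at 0.203% of the control embryo level, rank 8 of the 12 cells, whose median was 0.210%. Eif4e1b, Umodl1 and Astl, with 80, 44 and 41 counts, were also counted in cell 2 alone. The part of these transcripts in the Bmp15 counts was not tested, and without cell 2 Bmp15 was at 0 counts in the 11 remaining cells.

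The regulators and partners of these genes were counted from lists. Of 13 oocyte transcription regulators, 11 could be tested, 0 passed, 5 had a fitted value above 0 and 6 below, and the median was -0.02. Figla, the helix-loop-helix factor that the zona promoters need, had 0.87 ± 2.18 CPM in control embryos and too few counts for the test. Nobox, the homeobox factor upstream of Gdf9 and Bmp15, had 41.7 ± 21.0 CPM in control and 32.2 ± 17.3 CPM in HU embryos (log2 fold change -0.37 ± 0.35 SE, edgeR adjusted p = 0.888). Lhx8, a LIM homeobox factor of early oocytes, had 25.8 ± 13.5 and 25.9 ± 10.1 CPM. The orphan receptor Nr6a1, known as a repressor of Gdf9 and Bmp15 transcription in the mouse, had 145 ± 33.4 and 166 ± 32.0 CPM. Taf4b, a TFIID subunit, had 193 ± 68.4 and 220 ± 68.8 CPM, and the forkhead factor Foxo3 had 82.7 ± 21.96 and 79.4 ± 29.9 CPM. The messengers of the factors that act on the zona and growth factor promoters thus ranged from nearly none (Figla) to well counted (Nr6a1), with no call between groups.

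Of 10 genes for mRNA storage and translation in the oocyte, 7 had a fitted value below 0 and 0 passed, with a median of -0.19. The oocyte cap-binding protein gene Eif4e1b had 339 ± 122 CPM in control and 238 ± 130 CPM in HU embryos (log2 fold change -0.51 ± 0.27 SE, edgeR adjusted p = 0.835). Its transporter Eif4enif1 had 233 ± 41.8 and 204 ± 50.7 CPM, and the RNA-binding translational regulator Dazl had 126 ± 41.4 and 99.3 ± 43.0 CPM.

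Genes listed as other factors secreted by oocytes had values on the side of Bmp15. All 8 listed were tested, 8 of 8 had a fitted value below 0, 0 passed and the median was -0.28, compared with 0.04 over all genes. The 8 include Kitl, which is also on the list of cumulus and granulosa markers, so they are not all oocyte factors. Kitl, named after its values were seen, had a log2 fold change of -0.78 ± 0.41 SE (edgeR adjusted p = 0.835). Oosp1, an oocyte secreted protein, had 1476 ± 452 CPM in control and 1349 ± 524 CPM in HU embryos. Tgfb2, another ligand of the TGF-beta superfamily, had 472 ± 119 and 379 ± 110 CPM (log2 fold change -0.32 ± 0.19 SE, edgeR adjusted p = 0.835), and Oosp3 had 300.1 ± 99.2 and 239 ± 95.03 CPM. Of the 30 listed maternal oocyte genes, which include the 5, 29 were tested, 22 had a fitted value below 0 and 0 passed. Their summed level was 33990 to 55205 CPM in control and 20614 to 56161 CPM in HU embryos, and its part in the values of the 5 genes was not tested.

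Among the egg surface and cortical granule genes, 3 could be tested and 0 passed. Astl, the cortical granule protease that cleaves ZP2 after fertilization, had 17.8 ± 9.25 and 15.7 ± 8.77 CPM. Izumo1r, the sperm receptor JUNO of the egg membrane, had 26.6 ± 12.2 and 17.2 ± 8.09 CPM, and the tetraspanin Cd9, needed for gamete fusion, had 54.4 ± 22.4 and 74.7 ± 28.7 CPM. Of 12 other proteins with the polymerization module of the coat proteins, 3 could be tested, and all 3 had a fitted value below 0 without passing. Umodl1 had 313 ± 67.4 CPM in control and 255 ± 90.9 CPM in HU embryos. The coreceptor Tgfbr3 had 36.2 ± 16.4 and 31.6 ± 12.1 CPM, and Zpld1 had 6.55 ± 5.21 and 3.42 ± 3.67 CPM. Zp4-ps, the mouse pseudogene of a further coat gene, named after its values were seen, had 1.55 ± 1.88 CPM in control embryos and 0 counts in cumulus cells.

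Of 12 convertases and secretion factors, which process coat and growth factor precursors, 8 had a fitted value above 0 and 0 passed, with a median of 0.20. The chaperone genes Hspa5 (511 ± 221 and 757 ± 430 CPM), Calr (252 ± 109 and 344 ± 252 CPM) and Canx (209 ± 46.2 and 242 ± 89.7 CPM) had wide spreads in HU embryos. The other 4 of the 12 were fitted below 0. Among them Fam20c, a secretory pathway kinase named after its values were seen, had 31.3 ± 35.5 CPM in control and 10.8 ± 5.49 CPM in HU embryos (log2 fold change -1.53 ± 0.56 SE, unadjusted edgeR p = 0.0118, adjusted p = 0.829).

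On the receiving side, cumulus cells held messengers of part of the receptors while the ligand messengers were at or near 0. Of the 10 listed receptors, 4 were counted in at least 6 of the 12 cells. Tgfbr1, the type I receptor ALK5 through which GDF9 signals, had 141 CPM (136 to 146, Poisson interval) in cumulus cells and was counted in 12 of 12, against 36.4 CPM in the pooled control embryos. Without cell 2, left out after the data were seen, the cumulus values of the 16 receptor, SMAD, target and antagonist genes named here for their cumulus level were 1.03 to 1.06 times those given. Bmpr2, the type II receptor that both ligands use, had 15.3 CPM (13.8 to 16.98) in 10 of 12 cells, against 100.7 CPM in the embryos. Bmpr1b, the type I receptor ALK6 of BMP15, had 12.7 CPM (11.3 to 14.2) in 4 of 12 cells, against 29.5 CPM, and Bmpr1a had 13.8 CPM in 10 of 12 cells, against 19.5 CPM. Of 10 listed receptors, 7 could be tested between the embryo groups, 5 were fitted below 0 and 0 passed.

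Of the 12 SMAD signalling genes, 7 were counted in at least 6 of the 12 cumulus cells. The repressor gene Skil had 29.8 CPM in 12 of 12 cells, the GDF9 mediators Smad2 and Smad3 had 26.4 and 24.8 CPM in 9 and 7 cells, and the common partner Smad4 had 11.5 CPM in 10 cells. In control embryos Ski, Smad3 and the ubiquitin ligase Smurf2 had 134 ± 39.1, 120 ± 38.4 and 108 ± 31.8 CPM. Between the embryo groups 11 were tested and 0 passed. Skil alone had an unadjusted edgeR p under 0.05, with 18.8 ± 7.90 CPM in control and 36.6 ± 35.2 CPM in HU embryos (log2 fold change 0.95 ± 0.42 SE, adjusted p = 0.829).

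Of 17 listed targets of the ligands in cumulus cells, 8 were counted in at least 6 of 12 cells. The genes given next were named for their level. Of others on the list, Tnfaip6 was counted in 9 cells, Ptgs2 in 5, Ptx3 in 4, Kitl in 2 and Has2 in 1. The lactate dehydrogenase gene Ldha had 615 CPM in 12 of 12 cells, against 104 CPM in the pooled control embryos. Id2, a target of BMP signalling, had 373 CPM in 11 cells, against 53.8 CPM in the embryos. Cyp51, of cholesterol synthesis, had 143 CPM in 11 cells, against 25.7 CPM, and Grem1, a BMP antagonist, had 137 CPM in 9 cells, against 0.632 CPM. Hmgcs1, an earlier enzyme of cholesterol synthesis, had 113 CPM in cumulus cells and 129.5 CPM in the embryos.

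Of the listed extracellular antagonists, those named for their level in cumulus cells were nearly at 0 in embryos. Inhba, the activin and inhibin beta A subunit, had 181 CPM, the BMP regulator Bmper 134 CPM and the inhibin alpha subunit Inha 130 CPM in cumulus cells, against 0.464, 0.548 and 0.211 CPM in the pooled control embryos. The antagonists named for their share of the control embryo counts were low there: Fstl3 had 3.10 ± 1.68 and Chrd 1.92 ± 5.10 CPM. One antagonist, Fstl3, could be tested between the embryo groups, and it did not pass.

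**Figure D5:**
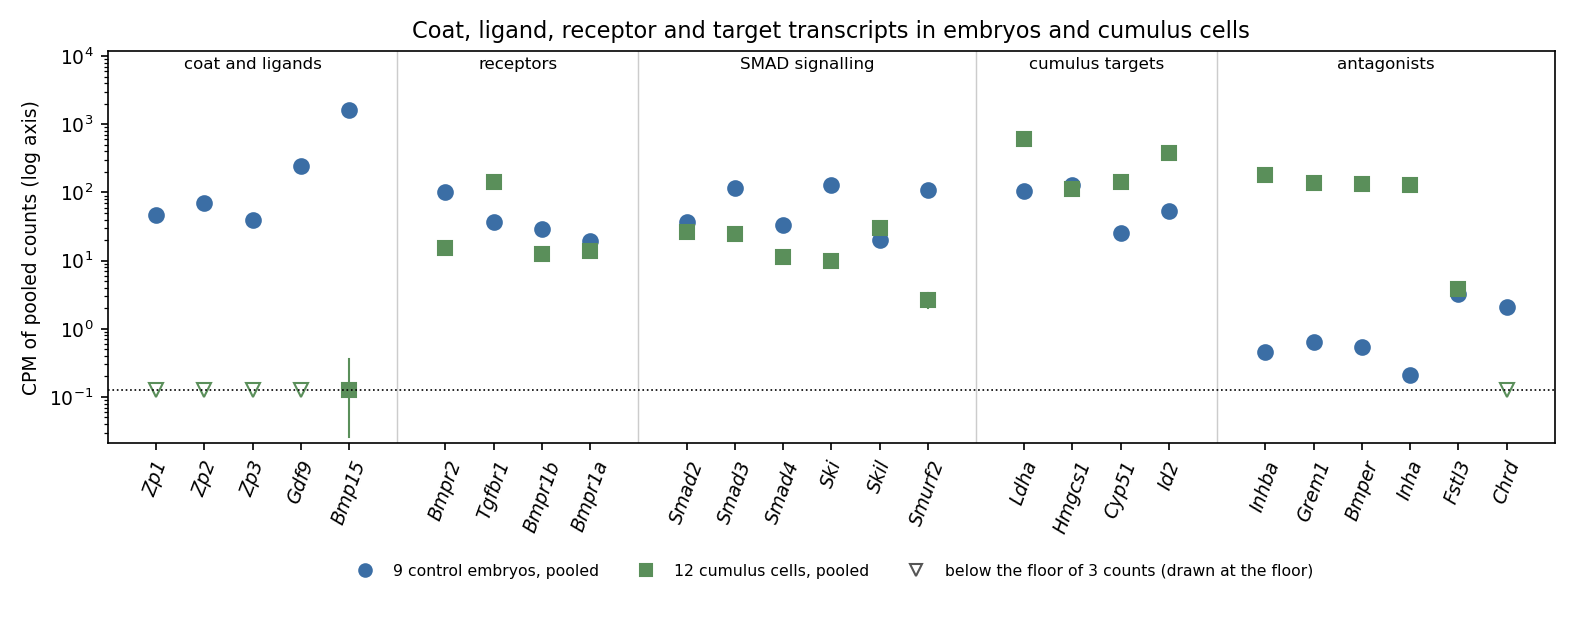
CPM of pooled counts (log axis) in 9 control embryos (blue circles) and 12 cumulus cells (green squares, lines are 95% Poisson intervals) for the coat and ligand genes and the receptor, SMAD, target and antagonist genes named for their level. Open triangles below the floor of 3 counts mark Zp1, Zp2, Zp3, Gdf9 and Chrd in cumulus cells, while Tgfbr1 stands at 141 CPM there.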

How the data were processed

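Single embryos and single cumulus cells were profiled by Smart-seq2, which reads whole cDNAs and marks neither strand nor molecule, per the labels' protocols. FastQC, STAR 2.7.3a, R 4.0.2 and the build mm10 are named in the submitters' processing notes; for the counter and its annotation, nothing is given in the sources used here. The authors deposited raw counts (24448 gene rows and 92 ERCC rows in 29 columns) and FPKM with the same rows. The deposited FPKM of the 5 genes equalled the count over the library's gene sum and 1 length per gene (relative tolerance 7.01e-08), 1925, 2200, 1317, 1804 and 3063 bases for Zp1, Zp2, Zp3, Gdf9 and Bmp15.

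From the counts without ERCC rows, HU and control embryos were compared with edgeR 4.0.16 in R 4.3.3 (filterByExpr, TMM, quasi-likelihood F test, no covariate, 17 embryos in the fit), adjusted by Benjamini-Hochberg over 11476 genes with a threshold of 0.05. The procedure was tested on simulated counts. SEs come from the F statistic. Levels are TMM-scaled CPM, logs add 1, and correlations used 100000 permutations with Python 3.11.15 and scipy 1.17.1. Cumulus counts were summed, with Poisson intervals at 95% and no test. DESeq2 1.42.0 and limma 3.58.1 served as alternatives, with other scalings, filters, pseudocounts and leave-outs.

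The genes and lists were chosen with earlier results of these data known. From each list the 3 genes with the highest mean CPM in control embryos are named, for receptors, SMADs, targets and antagonists also the top 4 in cumulus cells, and Figla, Nobox, Lhx8, Astl, Bmpr2, Tgfbr1 and Bmpr1b in any case; 1 antagonist gene named by this rule is not reported here. The highest summed CPM of other cell markers in a cumulus cell was 30.7 for theca and stroma, 164 for immune (median of cells 11.1), 20.1 for endothelial and 5.92 for erythroid markers.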

Additional observations from a re-analysis of the deposited data

Results flagged for a closer look

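In groups of this size, 1 value that lies far from the others by Dixon's criterion is met by chance in about 1 group in 20, and 10 groups (5 genes in 2 treatments) were examined. Zp3 in HU embryo 3 stood at 102 CPM, above the next HU embryo at 47.5 CPM and above all 9 control embryos. Zp3 in control embryo 2 stood at 23.8 CPM, below the other controls, of which the lowest was at 37.8 CPM. Zp1 in control embryo 9 stood at 65.3 CPM, above the next control at 50.5 CPM, in the control library with the most gene counts (3472116) and the highest Rn45s share (32.5%). The part of these library values in the Zp1 value was not tested.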

How the results depend on the processing

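Each fold change was recomputed under 29 alternatives, of which 17 left out 1 embryo and 1, the exact permutation, has no adjusted p, and in none of the others did any of the 5 genes pass the adjusted threshold. Bmp15 stayed below 0 (adjusted p 0.444 to 1.00) and Zp1 above 0 in all of them. ERCC scaling turned Zp2 to 0.13, Zp3 to 0.23 and Gdf9 to 0.018, and the genes at an unadjusted p under 0.05 were 617 higher and 25 lower, and a library size without Rn45s and mitochondrial genes turned Zp3 to 0.023. Leaving out 1 embryo gave -0.54 to -0.35 for Bmp15, -0.27 to -0.09 for Gdf9, 0.08 to 0.22 for Zp1, -0.13 to 0.044 for Zp2 and -0.39 to 0.10 for Zp3, with 0 to 1 genes called higher (1 without HU embryo 8) and 0 lower. DESeq2 called 2 genes higher and 1 lower over all genes. Without filtering, 1193 and 797 genes had an unadjusted p under 0.05. The replicate numbers did not pair the embryos: same-numbered embryos correlated at -0.10 to 0.19, and 1 of 8 correlated best with its own number. With the replicate block, 0 genes were called, and the values were 0.20 (Zp1), -0.08 (Zp2), -0.25 (Zp3), -0.20 (Gdf9) and -0.48 (Bmp15, adjusted p 0.923).

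With library size or ERCC scaling in place of TMM, 1 pair of genes was correlated after adjustment, Gdf9 with Bmp15 (r = 0.66 and 0.78). With ERCC scaling r was also higher for Zp1 with Zp2 (0.56, adjusted p 0.101) and Zp1 with Zp3 (0.49, adjusted p 0.154). The r of Zp2 with Gdf9 turned to 0.057 and 0.39 in these settings. With ERCC scaling, r turned to 0.26 for Zp1 with Gdf9, 0.21 for Zp1 with Bmp15, 0.19 for Zp2 with Zp3 and 0.31 for Zp3 with Gdf9. The causes were not tested. Leaving out 1 cumulus cell put Bmp15 at 0% to 0.00926% of the control level, and at 0% without cell 2.

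The 8 to 9 embryos per group limit these comparisons. Zp3 rests on 34 to 312 counts per embryo and Zp1 on 83 to 224, and counts carry no molecular identifiers. In simulated data of this design (11079 genes), 32% of 2-fold and 88% of 4-fold changes were recovered by edgeR.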
